A study of Homo sapiens with 12 samples.

Results

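The genes described here are 55 immediate early genes and short-lived regulators of K562 cells: genes that many cell types switch on within minutes of a signal, and genes whose mRNAs are known to be removed quickly. They were taken as a list of symbols, and no measured value enters the rule. The list was, however, chosen with earlier results of these data known. All 55 were found among 28519 coding and long non-coding genes whose strand could be set on GRCh38, and all 55 passed the filter on low counts, with 17171 genes tested in all. For each gene, the deposited fragment counts in bins of 200 bp were summed over the annotated RefSeq span on the gene's strand, exons and introns together. The list holds 10 AP-1 and related leucine zipper factors, 12 EGR, KLF, NR4A, HES and CSRNP factors, 3 ID helix-loop-helix inhibitors, 11 phosphatases and feedback inhibitors of cytokine or NF-kB signalling, 5 mRNA decay and antiproliferative proteins, 8 survival, kinase and stress genes, and 6 other early genes.

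K562 is an established human line from chronic myelogenous leukaemia, grown in suspension, and every RNA group comes from cells given 500 µM 4-thiouridine (4sU, a uridine analogue that cells build into new RNA) for 5 min. The RNA groups, of 2 libraries each, are TT-Seq, where RNA was sheared by sonication and the labelled RNA then purified, 4sU-Seq, where it was purified intact, Total RNA-Frag-Seq, which was sheared but not purified and is called sheared total RNA below, and Total RNA-Seq, which was neither and is called unsheared total RNA. Chromatin immunoprecipitation (ChIP) of RNA polymerase II after 7.5 min in 1% formaldehyde gave 2 libraries with an antibody to its form with serine 2 phosphorylated (S2P), a mark of elongation, and 2 with the N-20 antibody (N20), raised against the polymerase's large subunit. Both kinds of total RNA therefore hold labelled and older RNA together, and no group is free of 4sU. No stimulus other than the label is named, and all cells are of 1 line, so the values describe K562 cells with no stimulus stated.

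Immediate early genes respond to growth factors, cytokines and stress through factors that are already present in the cell, such as SRF with its ELK partners, CREB, STATs and NF-kB, and need no new protein for it. Their transcripts are mostly short, and many carry AU-rich elements that bind decay factors such as the ZFP36 proteins, so the RNA disappears soon after synthesis stops. A gene of this kind can thus be transcribed strongly and still hold little RNA at steady state, which is why labelled RNA, total RNA and polymerase are compared gene by gene below.

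Promoter sequences are shown for 5 members whose starts recur in the polymerase results, EGR1, FOS, JUNB, DUSP1 and PPP1R15A, since early response promoters are known for compact sets of such elements. Each is 300 bases from RefSeq on GRCh38.p14, from 250 bases before the annotated start to 50 bases after it, on the gene's strand. Capitals mark the CArG box (the SRF site), TGACGTCA (the CREB and ATF site) and TATAAA.
EGR1 (chr5:138465229-138465528, plus strand): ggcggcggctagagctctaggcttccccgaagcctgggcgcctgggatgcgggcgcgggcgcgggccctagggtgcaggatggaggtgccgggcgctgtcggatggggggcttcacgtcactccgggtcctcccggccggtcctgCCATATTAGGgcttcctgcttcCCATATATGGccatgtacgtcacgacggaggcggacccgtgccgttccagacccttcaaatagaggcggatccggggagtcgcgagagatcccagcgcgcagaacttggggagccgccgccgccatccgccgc
FOS (chr14:75278578-75278877, plus strand): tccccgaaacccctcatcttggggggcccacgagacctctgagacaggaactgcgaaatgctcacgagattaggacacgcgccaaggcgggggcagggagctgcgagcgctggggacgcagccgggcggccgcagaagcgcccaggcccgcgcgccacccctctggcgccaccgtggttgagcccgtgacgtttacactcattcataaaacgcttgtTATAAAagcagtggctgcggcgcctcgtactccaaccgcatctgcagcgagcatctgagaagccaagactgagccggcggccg
JUNB (chr19:12791236-12791535, plus strand): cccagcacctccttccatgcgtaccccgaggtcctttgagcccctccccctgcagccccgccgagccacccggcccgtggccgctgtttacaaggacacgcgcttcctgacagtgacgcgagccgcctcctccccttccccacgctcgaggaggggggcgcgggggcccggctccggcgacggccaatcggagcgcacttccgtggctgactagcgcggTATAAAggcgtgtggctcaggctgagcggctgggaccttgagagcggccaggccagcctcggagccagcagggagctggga
DUSP1 (chr5:172771146-172771445, minus strand): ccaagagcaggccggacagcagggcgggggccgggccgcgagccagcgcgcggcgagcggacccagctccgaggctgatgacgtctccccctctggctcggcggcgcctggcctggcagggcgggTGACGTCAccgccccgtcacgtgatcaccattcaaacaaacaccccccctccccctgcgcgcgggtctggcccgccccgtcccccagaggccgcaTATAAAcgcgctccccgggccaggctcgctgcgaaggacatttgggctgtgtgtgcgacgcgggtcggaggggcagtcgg
PPP1R15A (chr19:48872171-48872470, plus strand): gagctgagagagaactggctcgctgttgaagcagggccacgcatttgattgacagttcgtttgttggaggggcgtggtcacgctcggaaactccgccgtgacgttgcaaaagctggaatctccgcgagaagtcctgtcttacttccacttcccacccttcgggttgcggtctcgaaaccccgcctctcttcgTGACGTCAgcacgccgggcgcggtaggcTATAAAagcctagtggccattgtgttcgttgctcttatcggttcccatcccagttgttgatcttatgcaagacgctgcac
EGR1 held 2 CArG boxes, which began at -105 and -83 where 0 is the start, and it was the 1 member with such a match. TATAAA began at -33 in FOS, -31 in JUNB and -30 in DUSP1 and PPP1R15A. TGACGTCA began at -125 in DUSP1 and -58 in PPP1R15A, and also matched in JUND and MAFF.

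The promoter table held 41 of the 55 members, and the same search over both strands of 15843 coding promoters gives the comparison. TATAAA was found in 10 members (24.4%), against 9.75% of all coding promoters, and TGACGTCA in 4 members (9.76%), against 2.56%. CACGTG was found in 8 members (19.5%), against 8.82%, GGGCGG in 27 (65.9%), against 58.3%, and the NF-kB box in 6 (14.6%), against 12.2%. The CArG box was found in 1 member (2.44%), against 1.21%, and the AP-1 site TGACTCA, whose other strand reads TGAGTCA, in 1 member, FOSL2 (2.44%), against 3.62%. A match is a description of these letters in this window, and elements farther upstream were not searched.

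The members are short genes, and this bears on every comparison below. Their median span was 4201 bp, against 33410 bp for the 13274 coding genes tested, and 44 of the 55 (80.0%) spanned at most 10 kb, against 18.9% of those coding genes. Values are therefore also set beside the 2514 tested coding genes of at most 10 kb. Binned counts summed to between 25909021 and 71317148 per RNA library and between 12598494 and 73660126 per ChIP library. Of 13 markers of this erythroleukaemic line, 8 could be measured. Their summed level lay between 53.3 and 59.5 CPM per kb (TMM-normalised counts per kb of span and 1000000 counts) in each RNA library. Sums over fewer genes reached at most 2.05 for epithelial cells (2 genes) and 1.75 for lymphoid cells (3 genes). They reached at most 0.0207 for hepatocytes and 0.00211 for neurons (1 gene each). KRT5, an epithelial marker, was at 0 in all libraries. EPCAM, the other epithelial marker measured, lay between 1.3 and 2.05, above the K562 marker EPOR (0.544 to 1.09) in each library. CD3D, a lymphoid marker, lay between 0.328 and 1.57. Fibroblast markers were not analysed here. In bulk RNA a lower level can come from fewer cells with the RNA or from less RNA per cell, and the 2 cannot be told apart.

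The 2 replicates of the unsheared groups differed at FOS and FOSB, partners of JUN in AP-1. FOSB (chr19:45467996-45475179, plus strand) had 60 and 41 counts in TT-Seq libraries, 63 and 412 in 4sU-Seq, 68 and 47 in sheared total RNA and 50 and 442 in unsheared total RNA. FOS (chr14:75278828-75282230, plus strand) had 280 and 241 counts in TT-Seq libraries, 222 and 488 in 4sU-Seq, 121 and 105 in sheared total RNA and 156 and 378 in unsheared total RNA. The high values are those of replicate 2 of 4sU-Seq and replicate 2 of unsheared total RNA, while the sheared groups, with the same replicate numbers, stayed low. Among the 17171 tested genes, the ratio of replicate 2 to replicate 1 put FOSB at rank 2 in 4sU-Seq and rank 1 in unsheared total RNA, and FOS at rank 293 in 4sU-Seq and rank 22 in unsheared total RNA. Replicate 2 was at least 2-fold above replicate 1 in both of these groups for 22 tested genes, and FOS and FOSB were the 2 members among them. EGR3 and DUSP2 reached this in 4sU-Seq only, and KLF2 in unsheared total RNA only. Over all 17171 tested genes, 496 reached it in 4sU-Seq and 147 in unsheared total RNA. What sets these 2 libraries apart was not tested, and FOS and FOSB are given with and without them in the comparisons of RNA below.

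DUSP2, a nuclear phosphatase that removes the activating phosphates of MAP kinases, split the libraries in another way. It had 1 and 3 counts in TT-Seq libraries, 8 and 121 in 4sU-Seq, 1 and 4 in sheared total RNA and 169 and 152 in unsheared total RNA. Both unsheared total RNA libraries and replicate 2 of 4sU-Seq were high, and the 4 sheared libraries held at most 4 counts each. EGR3, an EGR family factor, had 23 and 27 counts in TT-Seq libraries, 66 and 133 in 4sU-Seq, 30 and 36 in sheared total RNA and 90 and 128 in unsheared total RNA, again with the unsheared libraries on top.

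**Figure D1:**
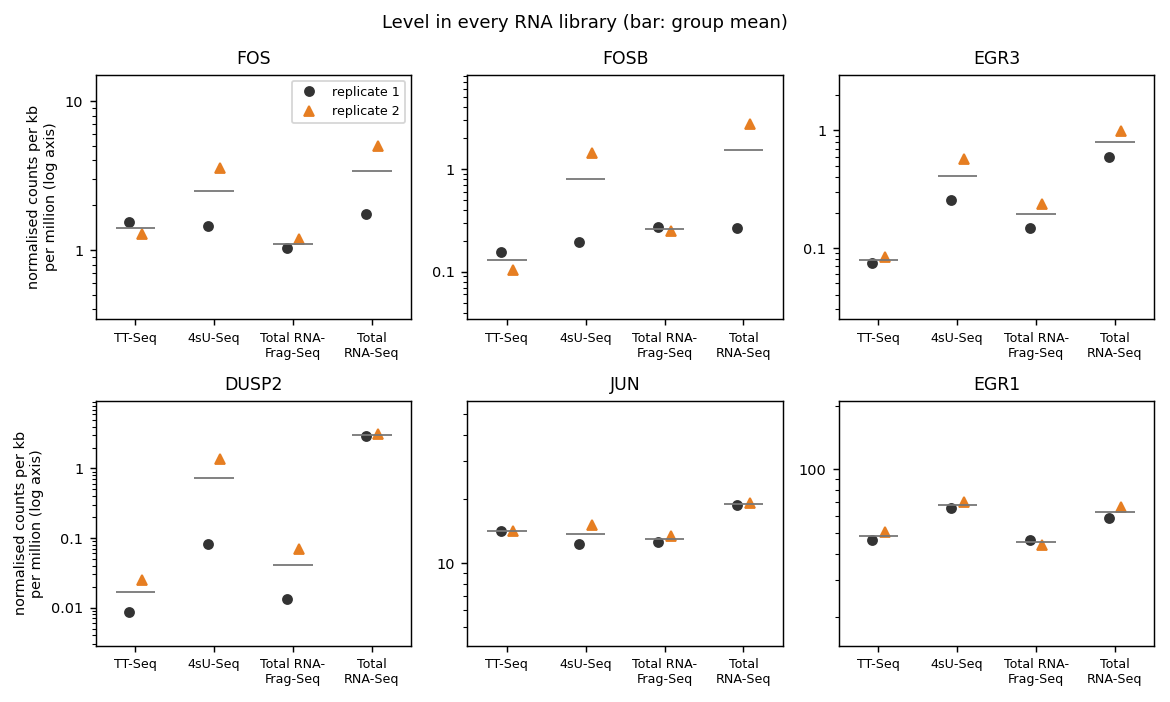
Level of 6 early genes in each RNA library, in CPM per kb on a log axis, with replicates 1 and 2 as separate symbols and the group mean as a bar. FOS and FOSB are high in replicate 2 of 4sU-Seq and of unsheared total RNA, DUSP2 is high in unsheared total RNA and in replicate 2 of 4sU-Seq, and JUN and EGR1 differ little between replicates.

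Levels between genes are compared as CPM per kb of span. The median member had a level of 2.85 in TT-Seq, 3.16 in 4sU-Seq, 2.5 in sheared total RNA and 3.9 in unsheared total RNA. The median coding gene of at most 10 kb had 1.57 in TT-Seq, 2.39 in 4sU-Seq, 2.54 in sheared total RNA and 3.08 in unsheared total RNA, so in sheared total RNA the median member lay just below it. The median of all coding genes was 1.07 in TT-Seq, 1.07 in 4sU-Seq, 1.13 in sheared total RNA and 1.06 in unsheared total RNA. Above the median of all coding genes stood 34 members in TT-Seq, 37 in 4sU-Seq, 33 in sheared total RNA and 39 in unsheared total RNA. The level of PIM1, a serine/threonine kinase whose gene is a known STAT5 target, was the highest of the list: 79.7 and 86.5 (TT-Seq), 92.5 and 108 (4sU-Seq), 153 and 146 (sheared total RNA) and 187 and 186 (unsheared total RNA). EGR1, a zinc finger factor of the growth factor response, followed in the labelled groups: 46.6 and 50.8 (TT-Seq), 65.6 and 70.3 (4sU-Seq), 46.3 and 44.1 (sheared total RNA) and 59.2 and 66.4 (unsheared total RNA). CISH, a feedback inhibitor of cytokine receptors that STAT5 induces, came next in TT-Seq, with 36.5 and 37.1 in TT-Seq libraries, 38.3 and 46 in 4sU-Seq, 32.2 and 32.7 in sheared total RNA and 36.5 and 42 in unsheared total RNA. These 3 genes thus stood in percentiles 99.6 to 99.9 of coding genes in TT-Seq, where all lay above the other members.

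Within AP-1 the 3 JUN genes stood high, while of the 4 FOS genes FOSL1 alone did. The level of JUN was 14.1 and 14.1 (TT-Seq), 12.3 and 15.1 (4sU-Seq), 12.5 and 13.4 (sheared total RNA) and 18.7 and 19.2 (unsheared total RNA). JUNB had 13.9 and 14.7 and JUND 25.5 and 27.1 in TT-Seq. FOS, in contrast, had 1.54 and 1.28 (TT-Seq), 1.46 and 3.57 (4sU-Seq), 1.03 and 1.18 (sheared total RNA) and 1.75 and 5.03 (unsheared total RNA), at percentile 58.6 of coding genes in TT-Seq, FOSB was at percentile 20.6 and FOSL2 at 23, while FOSL1 reached 85.8. The EGR and KLF families split likewise: KLF6 had 16.2 and 15.6 (TT-Seq), 10.2 and 10.3 (4sU-Seq), 8.41 and 7.67 (sheared total RNA) and 9.51 and 9.79 (unsheared total RNA), at percentile 98.8 in TT-Seq, against percentile 23.6 for EGR2, 17.8 for EGR3, 23 for KLF2 and 27.6 for KLF4.

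Other members of several roles are given next. IER2, a short nuclear regulator, had 9.73 and 12.1 (TT-Seq), 21.5 and 30.2 (4sU-Seq), 32 and 31.1 (sheared total RNA) and 40.3 and 40.8 (unsheared total RNA). MCL1, the labile survival factor of the BCL2 family, had 16.7 and 15 (TT-Seq), 18.3 and 19 (4sU-Seq), 38.8 and 32.6 (sheared total RNA) and 44.6 and 41.9 (unsheared total RNA). ZFP36, which binds AU-rich elements and recruits deadenylases, had 4.52 and 4.7 (TT-Seq), 8.34 and 8.99 (4sU-Seq), 5.43 and 5.68 (sheared total RNA) and 7.41 and 7.62 (unsheared total RNA). These 3 were lower in TT-Seq than in unsheared total RNA in both libraries. DUSP1, the early phosphatase of MAP kinases, had 3.9 and 3.8 (TT-Seq), 3.56 and 4.64 (4sU-Seq), 3.26 and 3.19 (sheared total RNA) and 4.19 and 4.68 (unsheared total RNA). NFKBIA, the inhibitor that holds NF-kB in the cytoplasm, had 2.85 and 2.76 (TT-Seq), 2.56 and 3.41 (4sU-Seq), 2.33 and 2.08 (sheared total RNA) and 2.98 and 3.1 (unsheared total RNA). ID1, a helix-loop-helix protein that blocks DNA binding by its partners, had 5.49 and 4.28 (TT-Seq), 6.22 and 7.15 (4sU-Seq), 5.15 and 4.09 (sheared total RNA) and 6.84 and 6.27 (unsheared total RNA). For DUSP1, NFKBIA and ID1 the 8 libraries stayed within a 2-fold range. The lowest members in TT-Seq were DUSP2, GADD45G, ARC and EGR3, with percentiles of 10.9, 16.7, 17.5 and 17.8.

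TT-Seq against sheared total RNA asks which sheared RNA is enriched among molecules made in the last minutes. Here 14 members were higher in TT-Seq and 15 lower, with 26 uncalled, and the members' median log2 fold change was -0.12. Over all 17171 genes 32.9% were higher and 33.6% lower (quasi-likelihood test of edgeR, p-values adjusted by Benjamini and Hochberg, threshold 0.05, as in all comparisons below), with a median of -0.03, so both shares of members lay below the background. Of tested coding genes of at most 10 kb 9.59% were higher and 67.4% lower, with a median of -0.82. The members' groups did not overlap in 22 genes upward and 21 downward, against 41.3% and 42.7% of all genes and 13.6% and 74.4% of those short coding genes.

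Of the 14 members that rose, 6 spanned at most 10 kb, and their median span was 13207 bp. TNFAIP3, an enzyme that edits ubiquitin and ends NF-kB signalling (chr6:137866349-137883312, plus strand), had levels of 1.97 and 2.0 in TT-Seq and 0.788 and 0.719 in sheared total RNA (log2 fold change 1.39 ± 0.10 SE, adjusted p = 1.41e-08). SGK1, a kinase of the serum and glucocorticoid response (chr6:134169256-134318112, minus strand), had 0.66 and 0.60 in TT-Seq, against 0.298 and 0.251 in sheared total RNA (log2 fold change 1.2 ± 0.09 SE, adjusted p = 4.12e-08). ATF3, a stress-induced leucine zipper factor, had 0.975 and 0.99 in TT-Seq, against 0.463 and 0.469 in sheared total RNA (log2 fold change 1.08 ± 0.08 SE, adjusted p = 2.33e-08). All 3 were more than 2-fold higher by this measure, and each TT-Seq library exceeded each sheared total RNA library. KLF10, a zinc finger factor of the TGF-beta response, had 10.1 and 8.55 in TT-Seq, against 4.58 and 4.28 in sheared total RNA (log2 fold change 1.07 ± 0.09 SE, adjusted p = 5.63e-08). CSRNP1, a nuclear factor induced by cytokines and AXIN1, had 3.18 and 3.42 in TT-Seq, against 1.55 and 1.7 in sheared total RNA (log2 fold change 1.02 ± 0.09 SE, adjusted p = 1.16e-07). KLF6 had a fold change close to these (log2 fold change 0.98 ± 0.06 SE, adjusted p = 4.9e-09). The other 8 that rose, with log2 fold changes of 0.27 to 0.72, were the antiproliferative BTG2, the AP-1 factors FOSL1 and FOSL2, the phosphatases DUSP4 and DUSP5, ID2, NFKBIA and SOCS2.

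Of the 15 members that fell, 13 spanned at most 10 kb, as did 25 of the 26 uncalled. ARC, known as the synaptic regulator of the neuronal early response and held at few counts here, had levels of 0.0605 and 0.0849 in TT-Seq and 0.263 and 0.27 in sheared total RNA (log2 fold change -1.85 ± 0.41 SE, adjusted p = 0.000973). PIM3, a kinase related to PIM1 (chr22:49960772-49964072, plus strand), had 2.66 and 3.05 in TT-Seq, against 8.42 and 8.35 in sheared total RNA (log2 fold change -1.55 ± 0.15 SE, adjusted p = 3.64e-06). IER2 (chr19:13150411-13154911, plus strand) had 9.73 and 12.1 in TT-Seq, against 32 and 31.1 in sheared total RNA (log2 fold change -1.53 ± 0.15 SE, adjusted p = 2.16e-05). In all 3 the lowest library of sheared total RNA was above the highest of TT-Seq. HES4, a repressor of the hairy and enhancer of split family, had 0.823 and 1.06 in TT-Seq, against 2.85 and 2.14 in sheared total RNA (log2 fold change -1.42 ± 0.28 SE, adjusted p = 0.000676). MCL1 (chr1:150574558-150579610, minus strand) had 16.7 and 15 in TT-Seq, against 38.8 and 32.6 in sheared total RNA (log2 fold change -1.17 ± 0.08 SE, adjusted p = 3.33e-08). The other 10 that fell, with log2 fold changes of -0.27 to -1.12, were JUND, JUNB, MAFK and MAFF among the leucine zipper factors, PIM1, PPP1R15A, the decay factors ZFP36, ZFP36L1 and ZFP36L2, and ID3. By role, 3 of 10 AP-1 and related factors were higher and 4 lower, and of the 12 EGR, KLF, NR4A, HES and CSRNP factors 3 were higher and 1 lower. Of the 11 phosphatases and feedback inhibitors 5 were higher and 6 uncalled, and of the 5 decay and antiproliferative genes 1 was higher and 3 lower. Of the 8 survival, kinase and stress genes 1 was higher and 4 lower, of the 6 other early genes 2 were lower and 4 uncalled, and of the 3 ID genes 1 was higher and 1 lower. Beside these counts stand 32.9% higher and 33.6% lower over all genes, and differences between the roles were not tested.

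JUN, EGR1, DUSP1 and ID1 did not pass the test in this comparison: JUN had 0.12 ± 0.09, EGR1 0.11 ± 0.07, DUSP1 0.26 ± 0.12 and ID1 0.07 ± 0.15. FOS did not pass either (log2 fold change 0.36 ± 0.72 SE, adjusted p = 0.693), nor did FOSB (-1.02 ± 1.97), with the split of the unsheared replicates inside the shared estimate of spread. Without replicate 2 of 4sU-Seq and of unsheared total RNA, an alternative chosen after the data were seen, FOS had a log2 fold change of 0.37 ± 0.14 (SE, adjusted p = 0.0303) and FOSB one of -1.01 ± 0.23 (adjusted p = 0.000979), and the counts of members became 17 higher and 20 lower. Of the 29 members called, 20 were called in the same direction under each alternative that gave them a value, 8 higher (the 6 described above, BTG2 and FOSL1) and 12 lower.

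**Figure D2:**
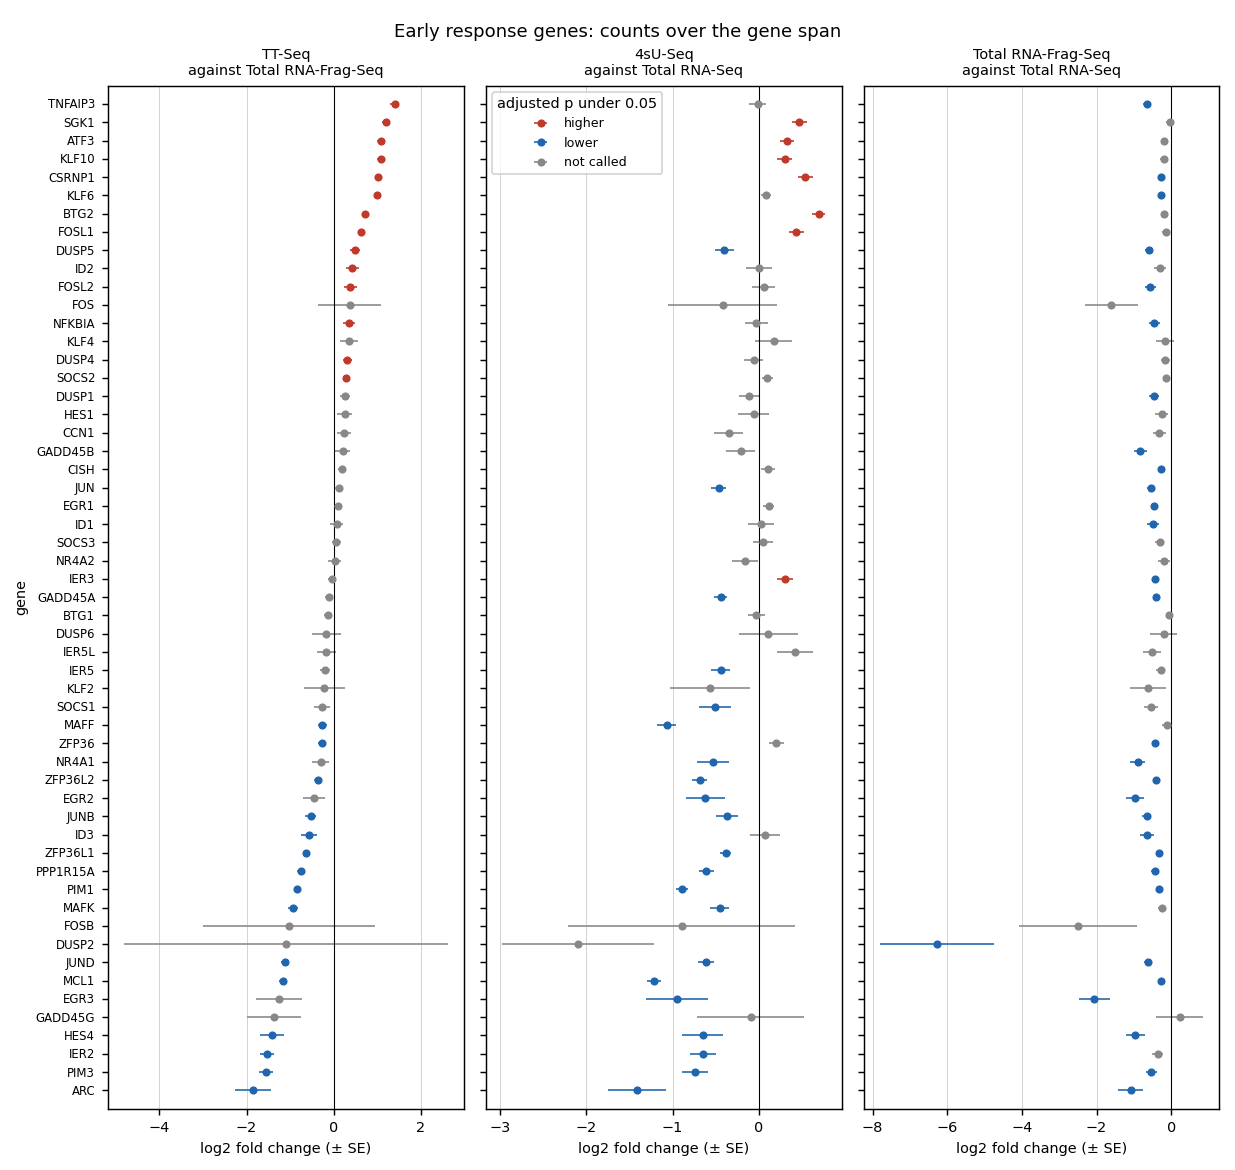
Log2 fold change with its standard error for the 55 genes in 3 comparisons, ordered by TT-Seq against sheared total RNA and coloured by the edgeR call, on x axes of different length. TNFAIP3, SGK1, ATF3 and KLF10 are at the top and ARC, PIM3 and IER2 at the bottom of the first panel, and no gene is called higher in the third.

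4sU-Seq against unsheared total RNA makes the same comparison without shearing. Of the members, 7 were higher and 21 lower, with 27 uncalled and a median log2 fold change of -0.16. Over all genes 26.5% were higher and 29.6% lower, and among coding genes of at most 10 kb 8.15% and 47.6%. BTG2, which slows the cell cycle and promotes deadenylation, had levels of 24.6 and 25.1 in 4sU-Seq and 15.3 and 15.4 in unsheared total RNA (log2 fold change 0.69 ± 0.08 SE, adjusted p = 4.65e-06). CSRNP1 had 2.66 and 3.03 in 4sU-Seq, against 1.9 and 2.01 in unsheared total RNA (log2 fold change 0.54 ± 0.09 SE, adjusted p = 0.000136), and SGK1 had 0.369 and 0.418 in 4sU-Seq, against 0.28 and 0.287 in unsheared total RNA (log2 fold change 0.47 ± 0.09 SE, adjusted p = 0.000546). These 3, with FOSL1, ATF3, IER3 and KLF10, made up the 7 that rose, and no group overlapped in the 3 genes given.

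Lowest among those that passed was ARC, with 0.165 and 0.263 in 4sU-Seq and 0.415 and 0.732 in unsheared total RNA (log2 fold change -1.41 ± 0.33 SE, adjusted p = 0.00229). MCL1 had 18.3 and 19 in 4sU-Seq, against 44.6 and 41.9 in unsheared total RNA (log2 fold change -1.22 ± 0.08 SE, adjusted p = 9.67e-08). MAFF, a small MAF factor without an activation domain, had 0.415 and 0.436 in 4sU-Seq, against 0.941 and 0.84 in unsheared total RNA (log2 fold change -1.07 ± 0.11 SE, adjusted p = 2.2e-06). All 3 fell with no overlap between groups. The other 18 that fell included JUN, JUNB and JUND, EGR2 and EGR3, PIM1 and PIM3, IER2 and IER5, ZFP36L1 and ZFP36L2, GADD45A and PPP1R15A, while EGR1 (0.11 ± 0.07), KLF6 (0.09 ± 0.06), NFKBIA (-0.03 ± 0.14), ID1 (0.02 ± 0.15), ZFP36 (0.20 ± 0.09) and DUSP1 (-0.11 ± 0.12) did not pass. Without replicate 1 of 4sU-Seq 11 members were higher and 16 lower, and without replicate 2 of unsheared total RNA 8 were higher and 13 lower, with ARC and EGR3 no longer called. FOS had -0.42 ± 0.63 with all libraries and -0.22 ± 0.19 without replicate 2 of both groups, and FOSB had -0.90 ± 1.32 with all and -0.40 ± 0.32 without those 2, none of them called.

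Sheared total RNA against unsheared total RNA compares groups whose labels differ in shearing, in RNA that was never purified. Whether these libraries also differ in culture or handling was not tested. Members moved in 1 direction: 30 were lower in sheared total RNA and 0 higher, with 25 uncalled and a median log2 fold change of -0.41. Fold changes were negative for 54 of 55 members (98.2%), against 53.9% of all genes and 91.6% of coding genes of at most 10 kb. The 2 groups did not overlap in 45 members downward, against 33.9% of all genes and 69.5% of those short coding genes. Over all genes 11.8% were lower and 16.9% higher, with a median of -0.03, and among coding genes of at most 10 kb 30.9% were lower and 0.358% higher, with a median of -0.27. No member was higher at an unadjusted p under 0.05 or by DESeq2 either. Scaled by each library's summed counts over the tested genes, without TMM factors, 38 members were lower and the median of all genes moved by -0.12. In that setting 30.1% of all calls were higher, against 59.0% with TMM. The number of members that were lower was 14 without replicate 2 of sheared total RNA and 17 without replicate 2 of unsheared total RNA.

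DUSP2 had the most extreme value (chr2:96143169-96145440, minus strand), with 0.0131 and 0.0694 in sheared total RNA and 2.93 and 3.13 in unsheared total RNA (log2 fold change -6.28 ± 1.53 SE, adjusted p = 0.0337). That estimate rests on 1 and 4 counts in the sheared libraries, and without replicate 2 of unsheared total RNA its adjusted p was 0.113. EGR3 had 0.149 and 0.237 in sheared total RNA, against 0.592 and 0.998 in unsheared total RNA (log2 fold change -2.06 ± 0.42 SE, adjusted p = 0.00508), and ARC had 0.263 and 0.27 in sheared total RNA, against 0.415 and 0.732 in unsheared total RNA (log2 fold change -1.09 ± 0.34 SE, adjusted p = 0.0271). Both fell with no overlap, at low counts. Of the 30 members called lower, 12 kept their call under each alternative, but not DUSP2, EGR3 or ARC. Among abundant members the change was smaller but also passed: EGR1 had 46.3 and 44.1 in sheared total RNA, against 59.2 and 66.4 in unsheared total RNA (log2 fold change -0.47 ± 0.07 SE, adjusted p = 0.000196), and JUN had 12.5 and 13.4 in sheared total RNA, against 18.7 and 19.2 in unsheared total RNA (log2 fold change -0.55 ± 0.09 SE, adjusted p = 0.000467). FOS, with its split replicates, had -1.61 ± 0.72 and was not called, and without the 2 libraries named above it had -0.67 ± 0.18 (adjusted p = 0.0166). FOSB had -2.50 ± 1.58, also uncalled, and 0.00 ± 0.28 without them (adjusted p = 0.992).

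TT-Seq against 4sU-Seq asks what shearing before purification changes in labelled RNA. Of the members, 8 were higher in TT-Seq and 22 lower, with a median log2 fold change of -0.27. Over all genes 29.0% were higher and 28.6% lower, and among coding genes of at most 10 kb 5.53% and 65.8%, with a median of -0.71. Scaled by each library's summed counts over the tested genes, without TMM factors, the median of all genes moved by -0.17. In that setting 6 members were higher and 28 lower, and 33.8% of all calls were higher, against 50.4% with TMM. TNFAIP3 had levels of 1.97 and 2.0 in TT-Seq, against 1.12 and 1.24 in 4sU-Seq (log2 fold change 0.75 ± 0.09 SE, adjusted p = 5.27e-06), SGK1 had 0.66 and 0.60 in TT-Seq, against 0.369 and 0.418 in 4sU-Seq (log2 fold change 0.68 ± 0.09 SE, adjusted p = 1.08e-05), and MAFF had 0.662 and 0.696 in TT-Seq, against 0.415 and 0.436 in 4sU-Seq (log2 fold change 0.68 ± 0.11 SE, adjusted p = 7.36e-05). KLF6, KLF10, ATF3, DUSP5 and CSRNP1 completed those that rose. Lowest among those called was EGR3, with 0.0741 and 0.084 in TT-Seq, against 0.255 and 0.57 in 4sU-Seq (log2 fold change -2.36 ± 0.44 SE, adjusted p = 0.000982), then HES4 with 0.823 and 1.06 in TT-Seq, against 2.33 and 4.0 in 4sU-Seq (log2 fold change -1.73 ± 0.27 SE, adjusted p = 9.12e-05), and ARC with 0.0605 and 0.0849 in TT-Seq, against 0.165 and 0.263 in 4sU-Seq (log2 fold change -1.53 ± 0.40 SE, adjusted p = 0.00438), whose call was lost without replicate 2 of 4sU-Seq. JUN (0.04 ± 0.09), DUSP1 (-0.09 ± 0.12) and NFKBIA (-0.09 ± 0.13) did not pass. DUSP2 (-5.28 ± 1.80) and FOSB (-2.62 ± 1.61) had lower estimates than EGR3 but did not pass, and FOS had -0.82 ± 0.63. Without replicate 2 of 4sU-Seq and of unsheared total RNA, FOS had -0.07 ± 0.16 and FOSB -0.62 ± 0.27, both uncalled, and DUSP2 was called (-2.21 ± 0.87, adjusted p = 0.0463).

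The difference between the 2 purification comparisons was tested as an interaction, (TT-Seq minus sheared total RNA) minus (4sU-Seq minus unsheared total RNA) on the log2 scale. It was positive and called for 11 members and negative and called for 6, with a members' median of 0.17. Over all genes 20% were called positive and 22.0% negative, with a median of 0.00, and among coding genes of at most 10 kb 6.72% and 42.9%, with a median of -0.42. TNFAIP3, with 1.97 and 2.0 (TT-Seq), 1.12 and 1.24 (4sU-Seq), 0.788 and 0.719 (sheared total RNA) and 1.28 and 1.09 (unsheared total RNA), led (1.41 ± 0.14 SE, adjusted p = 6.07e-06), followed by KLF6 (0.90 ± 0.09 SE, adjusted p = 5.39e-06) and DUSP5, a nuclear phosphatase of MAP kinases (0.89 ± 0.16 SE, adjusted p = 0.000457). DUSP5 had levels of 0.708 and 0.714 in TT-Seq and 0.536 and 0.472 in sheared total RNA, and of 0.556 and 0.606 in 4sU-Seq and 0.749 and 0.785 in unsheared total RNA. DUSP5 rose in the sheared pair and fell in the unsheared pair. At the negative end were IER2 (-0.88 ± 0.21 SE, adjusted p = 0.0101), PIM3 (-0.81 ± 0.21 SE, adjusted p = 0.00981) and JUND (-0.51 ± 0.13 SE, adjusted p = 0.00901), where TT-Seq lay further below sheared total RNA than 4sU-Seq below unsheared total RNA. PIM3 had levels of 2.66 and 3.05 (TT-Seq), 5.98 and 8.66 (4sU-Seq), 8.42 and 8.35 (sheared total RNA) and 11.5 and 13 (unsheared total RNA). JUND had 25.5 and 27.1 (TT-Seq), 51.7 and 64.4 (4sU-Seq), 60.6 and 53.6 (sheared total RNA) and 86.6 and 90.8 (unsheared total RNA). JUN was also called (0.59 ± 0.12 SE, adjusted p = 0.00164): it fell in 4sU-Seq against unsheared total RNA and did not pass in TT-Seq against sheared total RNA. Without replicate 1 of 4sU-Seq 12 members were negative and called. FOS had 0.78 ± 0.96 with all libraries and 0.60 ± 0.24 without replicate 2 of 4sU-Seq and of unsheared total RNA, and FOSB had -0.12 ± 2.33 with all and -0.61 ± 0.39 without those 2, none of them called.

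Where the counts lie along a gene also differed. Of the members, 39 spanned at least 2 kb and held at least 50 counts in every RNA library, and for these the share of sense counts in the 5' part of the span, its first 50%, was compared. The median share was 44.2% in TT-Seq and 32.2% in sheared total RNA, and 40.9% in 4sU-Seq and 33.4% in unsheared total RNA. The 1768 coding genes of at most 10 kb that met the same limits had 43.3% in TT-Seq and 31.1% in sheared total RNA, and 35.5% in 4sU-Seq and 31.3% in unsheared total RNA, each below the members' median. All 10645 coding genes that met the same limits had 51.2% in TT-Seq and 40.3% in sheared total RNA, and 46.3% in 4sU-Seq and 38.3% in unsheared total RNA. TT-Seq was above sheared total RNA without overlap in 21 of the 39 members and below in 5, against 65.9% and 16.0% of the short coding genes and 71.0% and 16.3% of all of them. 4sU-Seq was above unsheared total RNA in 21 members and below in 11, against 50% and 25.6% of the short coding genes and 66.0% and 17.2% of all.

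CISH showed the shift plainly, with 39.6% and 40.7% in TT-Seq and 14.5% and 15.3% in sheared total RNA. BTG2 had 58.7% and 59.3% in TT-Seq and 30.6% and 36.5% in sheared total RNA, KLF10 had 37.2% and 35% in TT-Seq, against 14.6% and 14.8% in sheared total RNA, and NFKBIA had 48.8% and 47.9% in TT-Seq, against 24.7% and 30.5% in sheared total RNA. In these genes total RNA lay mostly in the 3' part of the span and labelled RNA was spread more evenly. The opposite held for IER5, with 42.3% and 38.6% in TT-Seq and 93.1% and 89.6% in sheared total RNA, and for BTG1, an antiproliferative partner of the deadenylase complex, with 68.1% and 68.9% in TT-Seq, against 94.2% and 93.3% in sheared total RNA. The span of BTG1 overlaps LINC01619 on the same strand. For ATF3, with 1.11% and 0.987%, and SGK1, with 0.418% and 0.625% in TT-Seq, almost all counts lay in the 3' part of a long annotated span. Levels per kb of those 2 genes are therefore averages over spans with few counts in much of their length.

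**Figure D3:**
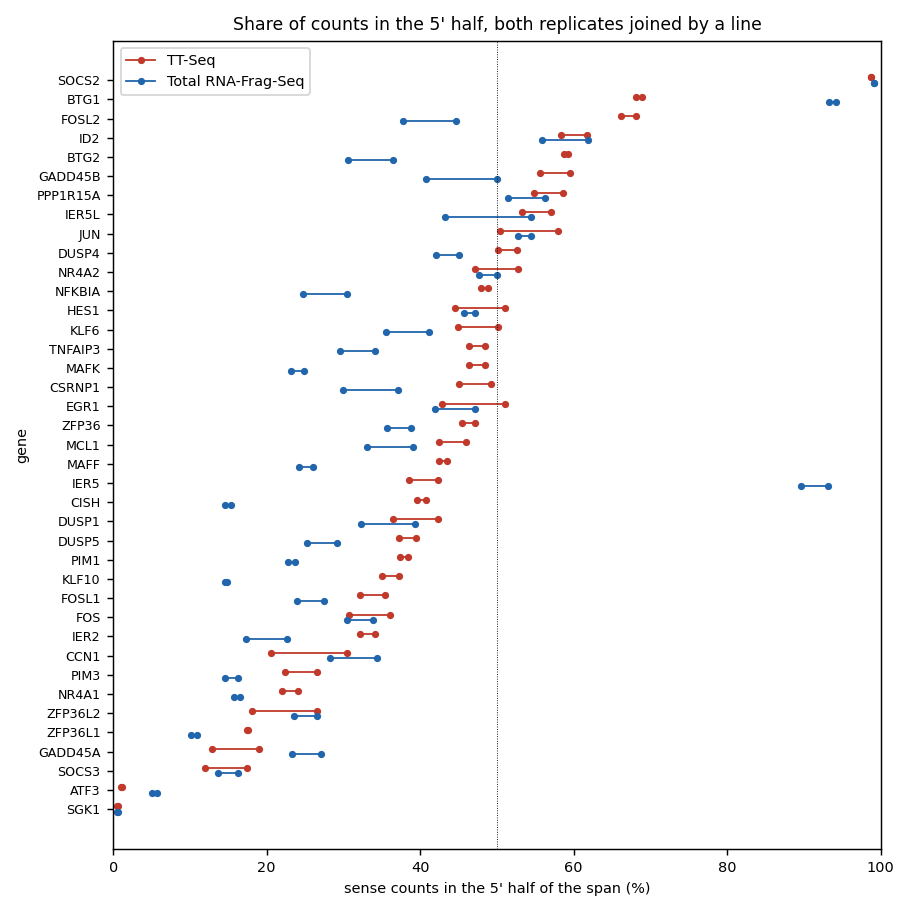
Share of sense counts in the 5' part (first 50%) of the span, in percent, for the 39 genes with enough counts, with the 2 libraries of TT-Seq and of sheared total RNA joined by a line. In 21 genes both TT-Seq libraries lie above both sheared total RNA libraries and in 5 below, among them IER5 and BTG1.

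Labelled RNA also covered the flanks. In the 1 kb before the start on the opposite strand, the median over members of this window's level was 13.3% of the span's own level in TT-Seq and 2.62% in sheared total RNA, and 7.19% in 4sU-Seq and 2.46% in unsheared total RNA. Over coding genes of at most 10 kb the medians were 20.4% in TT-Seq and 4.12% in sheared total RNA, and over all coding genes tested 23.8% in TT-Seq and 4.45% in sheared total RNA. KLF6 had 7.29 and 10.5 CPM per kb there in TT-Seq and 0.778 and 0.382 in sheared total RNA, and CISH had 12 and 13.3 in TT-Seq and 4.38 and 6.07 in sheared total RNA. SOCS1, an inhibitor of JAK kinases, had 6.54 and 7.78 in TT-Seq and 0.864 and 0.955 in sheared total RNA. IER2 had the opposite order, with 1.79 and 1.91 in TT-Seq and 5.24 and 6.22 in sheared total RNA. In the 3 kb after the annotated end on the same strand, the median was 13.3% of the span's level in TT-Seq and 3.17% in sheared total RNA, against 25.5% in TT-Seq and 6.81% in sheared total RNA for coding genes of at most 10 kb and 33.1% in TT-Seq and 10.4% in sheared total RNA for all coding genes. PIM1 had 22.9 and 25.2 CPM per kb there in TT-Seq and 2.53 and 2.56 in sheared total RNA, and GADD45A, a p53-induced stress gene, had 15.5 and 13.3 in TT-Seq and 1.07 and 1.13 in sheared total RNA. In both genes the TT-Seq libraries were above those of sheared total RNA.

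**Figure D4:**
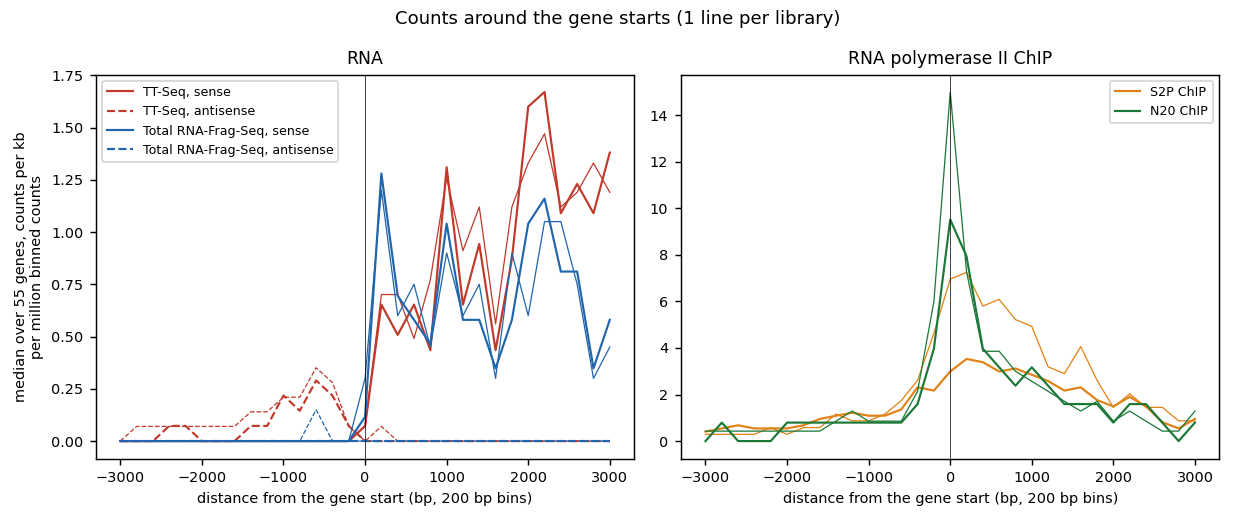
Median over the 55 genes of CPM per kb (per 1000000 binned counts) in 200 bp bins around the annotated start, with 1 line per library. TT-Seq shows antisense counts upstream of the start that are almost absent from sheared total RNA, and N20 ChIP peaks at the start while S2P ChIP extends into the gene.

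The authors' deposited table gives a synthesis and a decay rate per transcriptional unit, a stretch of continuous transcription segmented from TT-Seq, whose unit the sources used here do not state, so that ranks are given. Units were matched to genes here by overlap of coordinates on the same strand, which gave a unit for 37 members. The units matched to BTG1, CISH and SOCS1, among others, were of non-coding classes. Of the 37, 18 in the mRNA class had rates, among 6913 such units. In the authors' deposited table the median decay rate of these 18 stood at percentile 67.2, with 12 above the median unit, 7 above percentile 75 and 4 below percentile 25. By the authors' deposited table EGR1 stood at percentile 97.1 for decay and 99.9 for synthesis, KLF6 at 96.5 and 98.2, JUN at 96.4 and 98.8, and KLF10 at 88.1 and 98.2. These 4 genes ranked high in both rates, whereas the median synthesis rate of the 18 stood at percentile 45.4, with 8 above the median unit. In the authors' deposited table FOS stood at percentile 71.1 for decay and 61.4 for synthesis, and TNFAIP3 at 80.6 and 76.0. At the other end of the authors' deposited table CCN1, a secreted matrix protein, stood at percentile 8.27 for decay, NR4A1, an orphan nuclear receptor, at 8.4 and MAFK at 13.4, so a place on the list did not go with a high deposited decay rate in each case. These rates come from the same RNA libraries and are not independent of the comparisons above.

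Polymerase was measured by ChIP at the start (bins within 500 bp of the annotated start) and in the body (bins more than 500 bp downstream of it), and 52 members were long enough for a body. The 2 S2P libraries differed in strength: their median start level over the 55 members was 2.66 and 5.8 counts per kb and 1000000 binned counts, against 8.41 and 8.31 in the N20 libraries, and their median body level was 1.92 and 2.8, against 1.74 and 1.88. Fold changes are sensitive to this and to scaling, and nothing says that the ChIP libraries come from separate cultures. In both antibodies 100% of the bins above 0 held an even count, against 37.7% to 41.4% of those in the RNA libraries; with ChIP counts halved, an alternative chosen after the data were seen, 11 bodies were higher and 1 lower, and 7 starts higher and 13 lower. ChIP counts carry no strand, and 12 members overlap another annotated gene on either strand, among them CISH, MAFF, MAFK, CSRNP1 and JUNB, whose neighbours' polymerase cannot be separated.

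The ratio of start to body was lower for S2P than for N20. Its median log2 value over members was 0.55 in S2P and 2.07 in N20, with 35 and 44 of 52 members above 0. Coding genes tested had medians of 2.11 in S2P and 3.09 in N20, and those of at most 10 kb 0.92 in S2P and 2.13 in N20. In 32 of 52 members both S2P libraries had a lower ratio than both N20 libraries and in 4 (FOSB, IER2, DUSP2 and DUSP6) a higher one, against 58.5% and 13% of coding genes. EGR1 had -0.67 and -0.37 in S2P and 1.65 and 2.59 in N20, and KLF6 had 0.79 and 0.67 in S2P and 3.82 and 4.55 in N20. JUN had 0.18 and -0.21 in S2P and 2.63 and 2.23 in N20, and BTG2 had 0.96 and 1.80 in S2P and 4.23 and 3.74 in N20. In these 4 genes N20 polymerase was concentrated at the start, while S2P polymerase was denser in the body in EGR1, and in JUN the 2 S2P libraries lay on either side of an equal density. FOS had 1.10 and 1.32 in S2P and 2.79 and 3.03 in N20, so its polymerase too was denser at the start than in the body with both antibodies. HES1, a NOTCH-induced repressor, had negative ratios with both antibodies, -2.62 and -3.21 in S2P and -1.12 and -2.04 in N20. Raw N20 counts at its annotated start were 26 and 30, while it stood at percentile 98.7 in TT-Seq. IER2 likewise had -1.14 and -0.98 in S2P and -1.70 and -1.28 in N20. Whether the annotated starts of HES1 and IER2 are in use was not tested.

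In gene bodies, 12 members were higher in S2P than in N20 and 1 lower, with 39 uncalled and a median log2 fold change of 0.63. Of the 25630 genes tested 25.8% were higher and 23.4% lower, with a median of -0.01, and of tested coding genes of at most 10 kb 38.8% and 5.05%, with a median of 0.46. Values are normalised CPM per kb, over counts in bodies. CISH had 10.7 and 21.7 in S2P and 4.0 and 3.89 in N20 (log2 fold change 2.04 ± 0.37 SE, adjusted p = 0.00809). FOSL1, an AP-1 factor, had 13.7 and 13.3 in S2P and 3.89 and 4.22 in N20 (log2 fold change 1.73 ± 0.14 SE, adjusted p = 7.23e-06), and MAFF had 3.47 and 4.58 in S2P and 1.47 and 1.66 in N20 (log2 fold change 1.35 ± 0.18 SE, adjusted p = 0.000123). In these 3 each S2P library was above each N20 library. KLF6 had the highest estimate, with 5.32 and 17.1 in S2P and 2.15 and 2.18 in N20, but its S2P libraries differed and it did not pass (log2 fold change 2.36 ± 0.73 SE, adjusted p = 0.0845). MAFK, CSRNP1, EGR1, BTG2, EGR2, DUSP4, NR4A1, ARC and FOSL2 completed those that rose. In TT-Seq ARC, FOSL2, EGR2, NR4A1, DUSP4, MAFF and MAFK stood at percentiles 17.5, 23, 23.6, 27.7, 32.7, 38.7 and 48.7 of coding genes. FOSL1, CSRNP1, BTG2, CISH and EGR1 stood at 85.8, 86.2, 99.3, 99.6 and 99.8. CISH, MAFF, MAFK, CSRNP1 and FOSL2, 5 of the 12, overlap a gene on the other strand. SGK1 fell, with 0.579 and 0.627 in S2P and 0.796 and 0.87 in N20 (log2 fold change -0.47 ± 0.13 SE, adjusted p = 0.0131). Its body covers most of a 148857 bp span that held 0.418% and 0.625% of its TT-Seq sense counts in the 5' part. Its body value is thus an average over a stretch with little labelled RNA, and whether the annotated start is in use was not tested. EGR1, MAFK, FOSL1 and MAFF kept their call under each alternative. The count moved with the library and the scaling: 40 members were higher and 1 lower without replicate 1 of S2P, 11 and 7 without replicate 2 of S2P, 6 were higher without replicate 1 of N20 and 7 without replicate 2 of N20. Scaled by each library's summed counts in the tested bodies, without TMM factors, 6 members were higher and 5 lower. In that setting the median of all genes moved by -0.48, and 24.9% of all calls were higher, against 52.4% with TMM.

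At gene starts, where 54 members passed the filter (ATF3 did not), 7 were higher in S2P and 11 lower, with a median of -0.30. Of the 20956 starts tested 17.5% were higher and 14.9% lower, with a median of 0.21, and of tested coding genes of at most 10 kb 27.5% and 10.2%, with a median of 0.47. Values are normalised CPM per kb, over counts at starts. DUSP6, a cytoplasmic phosphatase of MAP kinases, had 25.9 and 25 in S2P and 7.9 and 9.84 in N20 (log2 fold change 1.5 ± 0.43 SE, adjusted p = 0.00371), EGR2 had 36.5 and 35.7 in S2P and 18.4 and 11.8 in N20 (log2 fold change 1.30 ± 0.37 SE, adjusted p = 0.00325), and TNFAIP3 had 21.5 and 13.8 in S2P and 6.58 and 7.87 in N20 (log2 fold change 1.27 ± 0.52 SE, adjusted p = 0.0447). Raw N20 counts at these starts were few: 12 and 30 for DUSP6, 28 and 36 for EGR2, and 10 and 24 for TNFAIP3. The span of DUSP6 overlaps POC1B-DUSP6 on the same strand. SOCS2, FOSB, NR4A1 and IER2 also rose, with N20 counts of 122 and 190, 20 and 64, 28 and 54, and 72 and 162. In TT-Seq DUSP6, FOSB, EGR2 and NR4A1 stood at percentiles 18.7, 20.6, 23.6 and 27.7 of coding genes. TNFAIP3, SOCS2 and IER2 stood at 70.8, 91.1 and 98.0. PPP1R15A, a stress-induced phosphatase subunit, had 26.4 and 31.9 in S2P and 94.8 and 70.2 in N20 (log2 fold change -1.5 ± 0.34 SE, adjusted p = 0.000119), PIM1 had 93.6 and 131 in S2P and 224 and 298 in N20 (log2 fold change -1.22 ± 0.36 SE, adjusted p = 0.00463), and DUSP1 had 59.3 and 105 in S2P and 192 and 187 in N20 (log2 fold change -1.21 ± 0.35 SE, adjusted p = 0.00416). The others that fell were BTG2, IER3, JUNB, EGR1, ID2, GADD45A, CISH and JUN. FOS (-0.62 ± 0.33) did not pass. PPP1R15A was the 1 member whose call held under each alternative. The counts of members were 3 higher and 6 lower without replicate 1 of S2P, 1 and 19 without replicate 2 of S2P, 3 and 2 without replicate 1 of N20, and 5 and 2 without replicate 2 of N20. Scaled by each library's summed counts at the tested starts, without TMM factors, 4 members were higher and 21 lower. In that setting the median of all genes moved by -0.22, and 33.8% of all calls were higher, against 54.0% with TMM.

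**Figure D5:**
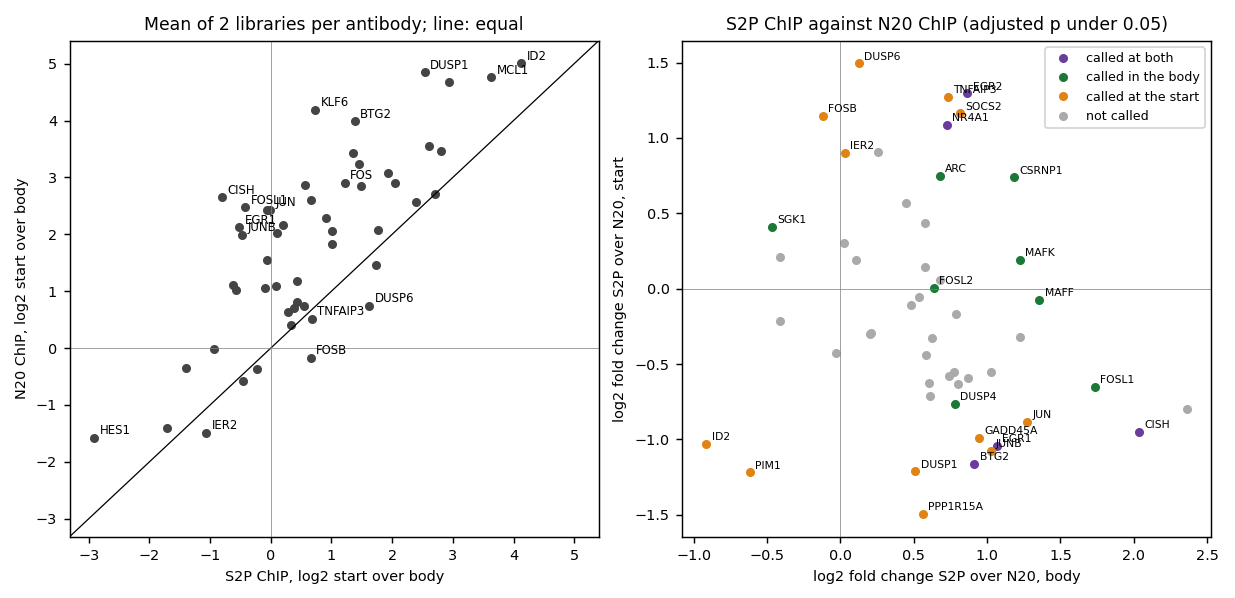
Left, log2 ratio of polymerase counts per kb at the start over those in the body for 52 genes, S2P ChIP on the x axis and N20 ChIP on the y axis, as means of 2 libraries; most points lie above the line of equal ratios. Right, log2 fold change of S2P over N20 in the body (x) and at the start (y), coloured by edgeR call, with KLF6 (uncalled), CISH and FOSL1 farthest to the right and PPP1R15A lowest.

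Upstream of these genes, 37 of 38 listed components of the pathways that induce them (such as SRF, ELK1, CREB1, JAK2, STAT5A and RELA) passed the filter. These are longer genes, with a median span of 75119 bp and 3 of 37 of at most 10 kb, so their counts are not set against those of the members. In TT-Seq against sheared total RNA 20 were higher and 12 lower, with a median of 0.20, against 32.9% and 33.6% of all genes. In TT-Seq against 4sU-Seq 25 were higher and 10 lower, against 29.0% and 28.6% of all genes. In sheared total RNA against unsheared total RNA 17 were higher and 2 lower, against 16.9% and 11.8% of all genes. Of 37 listed decay enzymes and adaptors (such as CNOT1, XRN1 and HNRNPD) 35 passed the filter, of which 4 spanned at most 10 kb, with 15 higher and 12 lower in TT-Seq against sheared total RNA, 23 and 7 in TT-Seq against 4sU-Seq, and 8 and 5 in sheared total RNA against unsheared total RNA. SRF itself had a log2 fold change of -0.29 ± 0.09 in TT-Seq against sheared total RNA and -0.41 ± 0.09 in sheared total RNA against unsheared total RNA. STAT5A had -1.14 ± 0.06 and -0.13 ± 0.06 in the same comparisons. Both genes lay below the medians of the upstream list, 0.20 and 0.11, and do not stand for that list.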

How the data were processed

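Members and gene lists were chosen with earlier results of these data known. The authors deposited fragment counts per 200 bp bin for 8 RNA and 4 ChIP libraries, and a table of transcriptional units with rates on the score scale of the authors' deposited file, used here as ranks. The submitters' processing notes name STAR 2.3.0, Bowtie2 2.1.0, SAMtools and hg38 (GRCh38), with roles not given. Table columns were tied to libraries by the labels' names for labelled and total RNA, with and without fragmentation, and a mistake there would move whole groups.

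Counts were summed over RefSeq spans on the gene's strand; the strand came from the promoter table for 41 members, from the authors' units for 7 and from general knowledge for 7. ChIP counts have no strand. Tests were edgeR 4.0.16 quasi-likelihood fits in R 4.3.3 over all genes, with filterByExpr, TMM scaling, 1 mean per group, a spread shared by the 8 RNA or the 4 ChIP libraries, and Benjamini-Hochberg adjustment at 0.05. Levels are TMM-normalised counts per kb of span and 1000000 counts, exons and introns together. The start to body ratio adds 0.5 counts. DESeq2 1.42.0, other scalings, filters, windows, the authors' units, a replicate block and leaving out each library were the alternatives. The scripts were tested on simulated data.

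Any member may be named. Values per library are given for the 5 highest and 5 lowest called members in TT-Seq against sheared total RNA, the 3 highest and 3 lowest in each other comparison, and FOS, JUN, EGR1, IER2, DUSP1, ZFP36, MCL1, KLF6, ID1, NFKBIA and PIM1; other members with values were chosen after their values were seen. Total counts per library, given with the results, set the precision. RNA libraries are biological duplicates per the labels; nothing says so for ChIP, where p-values may measure technical spread.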

Additional observations from a re-analysis of the deposited data

Results flagged for a closer look

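The change on purification differed between sheared RNA (TT-Seq against sheared total RNA) and unsheared RNA (4sU-Seq against unsheared total RNA) for 17 members, by the interaction term of the edgeR fit (adjusted p under 0.05). The difference of log2 fold changes was positive for TNFAIP3 (1.41), KLF6 (0.90), DUSP5 (0.89), MAFF (0.80), KLF10 (0.77), ATF3 (0.75), SGK1 (0.72), JUN (0.59), CSRNP1 (0.48), ZFP36L2 (0.33) and GADD45A (0.32). It was negative for IER2 (-0.88), PIM3 (-0.81), JUND (-0.51), MAFK (-0.48), ZFP36 (-0.47) and ZFP36L1 (-0.26). JUN, ATF3, SGK1, TNFAIP3, KLF10, KLF6, DUSP5, MAFF, JUND, ZFP36 and PIM3, 11 of the 17, were called in the same direction under each alternative. Among all 17171 genes 20% were called positive and 22.0% negative, so a call of this kind was common.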

How the results depend on the processing

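The authors' transcriptional unit in place of the RefSeq span gave values for 37 members. Of these, 9 were higher in TT-Seq against sheared total RNA, 3 in 4sU-Seq against unsheared total RNA and 5 in TT-Seq against 4sU-Seq. These counts are not set against those over all 55 members. SGK1, ATF3 and ID2, higher over RefSeq spans in TT-Seq against sheared total RNA, had no matched unit. Use of the unit turned the sign of EGR1 (-0.282), DUSP4 (-0.091), BTG1 (0.401), SOCS1 (0.533) and SOCS2 (-0.14) in TT-Seq against sheared total RNA. It also turned the sign of SOCS1 (0.037) in 4sU-Seq against unsheared total RNA, and of BTG1 (0.31) and SOCS2 (-0.203) in TT-Seq against 4sU-Seq. Leaving out 1 library gave 6 to 11 higher and 13 to 22 lower in 4sU-Seq against unsheared total RNA, 14 to 35 lower in sheared total RNA against unsheared total RNA, and 4 to 12 negative interactions. In ChIP it gave 6 to 40 bodies higher and 0 to 7 lower, and 1 to 5 starts higher and 2 to 19 lower. Body values ranged from -0.489 to 0.395 for IER2, -0.865 to 0.301 for ATF3 and -0.72 to 0.41 for KLF10. Without scaling factors 6 bodies were higher and 5 lower, and 4 starts higher and 21 lower; DESeq2 called 2 starts higher. A window of 1000 bp left 7 starts lower, with SOCS3 at -0.994, and a start to body ratio of 1.714 in N20. That ratio ranged from 0.506 to 0.668 in S2P when 1 library was left out. With the first against the last part of the span split in 3, the members' 5′ share was 38.4% in TT-Seq and 26.4% in sheared total RNA. It was 39.5% in 4sU-Seq and 29.4% in unsheared total RNA. Coding genes of at most 10 kb had 40.7% in TT-Seq and 26.6% in sheared total RNA, above the members. They had 32.2% in 4sU-Seq and 27.6% in unsheared total RNA, below the members. The members' main share was 33.1% in unsheared total RNA without either replicate. The cause of these shifts was not tested.

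Replicate numbers are not shown to pair the libraries: deviations of same-numbered libraries correlated at 0.167 (4sU-Seq with TT-Seq) down to -0.111 (4sU-Seq with unsheared total RNA). A replicate block gave 15 higher and 17 lower in TT-Seq against sheared total RNA, 8 and 21 in 4sU-Seq against unsheared total RNA, 8 and 25 in TT-Seq against 4sU-Seq, 34 lower in sheared total RNA against unsheared total RNA, 12 and 7 interactions, 27 and 2 bodies, and 7 and 10 starts. In 4sU-Seq against unsheared total RNA alone, 7 were higher and 22 lower with the block and 7 and 19 with crossed numbers. Counts under 50, as for ARC, EGR3 and DUSP2 in sheared RNA, limit their estimates.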
